A study of Mus musculus with 9 samples.

Results

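The genes described here are 8 genes of peroxisomal fatty acid oxidation in mouse liver: the thiolases Acaa1a and Acaa1b, the bifunctional enzymes Ehhadh and Hsd17b4, the sterol carrier gene Scp2, the membrane transporters Abcd2 and Abcd3, and the division factor Pex11a. They were taken by symbol from a table of 24532 genes, without a cut on their values but with earlier results of these data known. All 8 passed the filter on low counts, as did 14731 genes in all. Their values were read in 9 whole-liver messenger RNA libraries of wild-type C57BL/6 mice, in 3 groups of 3. Every mouse had received thioacetamide (TAA), a liver toxin that produces fibrosis, in escalating intraperitoneal doses for 10 weeks. The control group received saline (replicates 12, 13 and 14, called TAA below). In the treated groups, recombinant human cytoglobin (rhCYGB), a heme-binding globin, was given at 2 mg per kg body weight into the tail vein, over the last 2 weeks (replicates 17, 18 and 19) or the last 5 weeks (replicates 23, 27 and 28). Livers were collected 2 days after the final rhCYGB dose. No liver free of thioacetamide was analysed here, so every comparison is between injured livers, and the labels give neither age nor sex nor the hour of collection. Whether different replicate numbers stand for different mice is not in the labels, and the p-values below therefore cover the variation among these libraries, part of which may be technical.

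Peroxisomes shorten fatty acids that mitochondria handle poorly: very long, branched and dicarboxylic chains and the side chain of bile acid precursors. Acyl-CoAs enter through ABC transporters of the organelle membrane, a bifunctional enzyme hydrates and dehydrogenates the chain within each round of the cycle, and a thiolase cuts it. In rodent liver many of these genes are known targets of the fatty acid receptor PPAR alpha.

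In the comparison of rhCYGB 2 weeks against TAA, both thiolases rose (1.98% of all tested genes were called higher) and Abcd2 fell (1.34% were called lower), while the other 5 genes did not pass the test. In rhCYGB 5 weeks against TAA, both thiolases rose again (0.686% of tested genes were called higher, and 0.604% lower) and the other 6 genes did not pass. Setting 5 weeks directly against 2 weeks, Abcd2 was higher after 5 weeks (0.0136% of tested genes were called higher, and 0.00679% lower) and the other 7 genes did not pass. A gene is called where its p from edgeR's quasi-likelihood test, adjusted by Benjamini-Hochberg across the 14731 genes, is under 0.05. The counts of 3, 2 and 1 genes called stand beside 3.31%, 1.29% and 0.0204% of all tested genes in the same comparisons. DESeq2, another count test, called 3, 7 and 2 of the 8 genes, beside 12.2%, 8.01% and 6.12% of the genes it tested, and at 5 weeks its calls were all of the 8 except Ehhadh.

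The median log2 change of the 8 genes was 0.28 at 2 weeks, where that of all tested genes was -0.03. It was 0.69 at 5 weeks, against 0.01 over all genes. Both comparisons share the TAA libraries, so their values are not independent of each other. On the TMM scale, at 2 weeks the rhCYGB libraries lay wholly above TAA for 3 of the 8 genes (Acaa1a, Acaa1b and Scp2), as they did for 17.3% of tested genes, and wholly below for Abcd2, as for 16.3%. At 5 weeks they lay wholly above for 4 genes (the same 3 and Hsd17b4), as for 11.6% of tested genes, and wholly below for Abcd2, as for 13.4%. Between the rhCYGB groups, on the same scale, Abcd2 lay wholly higher after 5 weeks (10.9% of tested genes) and Acaa1b wholly lower (10.2%).

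**Figure D1:**
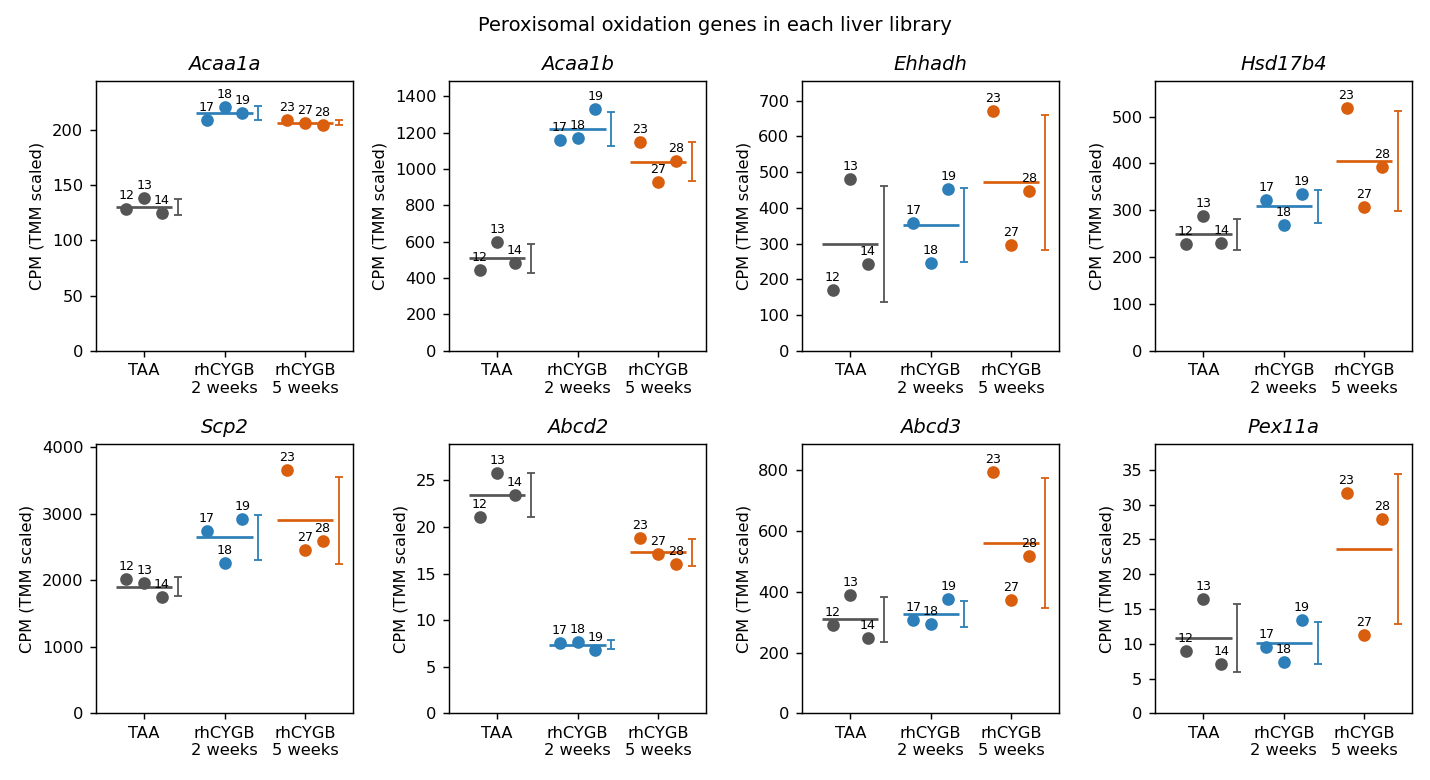
Level of each of the 8 genes in every library, in CPM (counts scaled to a common library size with TMM factors), on axes from 0 that differ by gene, with a numbered point for each library, a line at each group's mean and a bar of 1 SD to either side. The thiolases are above TAA in every rhCYGB library, Abcd2 is lowest in the 3 libraries of the 2-week group, and Ehhadh, Abcd3 and Pex11a spread widely within groups.

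Library totals ran from 55655727 to 87289945 estimated reads. Each of the 8 genes has 1 transcript in the deposited transcript table, so isoforms cannot be described. Hepatocyte markers summed to between 104600 and 154800 CPM in every library, with all 12 of them detected. Of these 12, edgeR called 1 higher at 5 weeks (beside 0.686% of tested genes). On the first principal component of log2 CPM, which held 32.3% of the variance, replicate 23 of the 5-week group stood farthest out at -78.8, and replicates 18 and 17 of the 2-week group followed on the other side at 44.1 and 39.4. The other 6 libraries lay between -20.2 and 20.5. Results are therefore given without these libraries where it matters. The TMM scaling factors were 1.11 to 1.18 in TAA and 0.843 to 1.04 in the rhCYGB groups, so the scale itself differs by group. With library totals alone the median of all tested genes moved to -0.36 at 2 weeks, -0.21 at 5 weeks and 0.10 between the rhCYGB groups, and directions below are relative to the TMM scale.

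Levels of different genes were compared per length, as the deposited FPKM, which scales reads for transcript length and library depth. Scp2 ranked first with a mean of 911 FPKM over the 9 libraries (725.5 to 1323) and Acaa1b next with 532 (290 to 757), in every library. Pex11a, with a mean of 16.8 FPKM (7.52 to 34.7), and Abcd2, with 2.98 (1.14 to 5.43), ranked lowest in every library. Between them, Ehhadh (mean 123 FPKM), Hsd17b4 (117.5), Abcd3 (116) and Acaa1a (102) exchanged ranks from library to library, and their ranges overlapped.

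Acaa1b encodes the thiolase B of rodent peroxisomes, known for its induction by peroxisome proliferators (gene ID 235674, mm10 chromosome 9, 119148043 to 119157093). Its level was 444.7, 596.8 and 481.7 CPM in the TAA libraries, 1162, 1170 and 1329 CPM after 2 weeks of rhCYGB, and 1149, 930 and 1043 CPM after 5 weeks. No rhCYGB library reached down to the TAA range. Acaa1b rose 2.40-fold at 2 weeks (log2 change 1.26 ± 0.14, SE, n = 3 per group, edgeR adjusted p = 0.0138). At 5 weeks it rose 2.05-fold (1.04 ± 0.14, edgeR adjusted p = 0.0362). On the TMM scale the 5-week libraries lay just below the 2-week ones, a difference that did not pass the test (log2 change -0.23 ± 0.14, edgeR adjusted p = 0.329). By library totals these groups overlapped, at 1124, 851.5 and 1081 CPM after 5 weeks and 979.7, 1058 and 1280 CPM after 2 weeks.

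Acaa1a encodes thiolase A, which in rodents is the more constitutive partner (gene ID 113868, mm10 chromosome 9, 119341294 to 119350295, 184.2 kb from Acaa1b). It stood at 128.8, 137.9 and 124.3 CPM in TAA, 208.6, 221.0 and 215.7 CPM after 2 weeks, and 209.1, 206.1 and 204.8 CPM after 5 weeks. The libraries of each group agree closely, with the highest at most 1.11 times the lowest, and both rhCYGB groups lie clear of TAA. Acaa1a rose 1.65-fold at 2 weeks (log2 change 0.72 ± 0.10, SE, n = 3 per group, edgeR adjusted p = 0.0208) and 1.59-fold at 5 weeks (0.66 ± 0.10, edgeR adjusted p = 0.0362). Its log2 difference between the rhCYGB groups was -0.06 ± 0.10 (edgeR adjusted p = 0.729).

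In part of their sequence, the 2 thiolase genes may not be separable by reads. Their reference transcripts share 91.0% of 1639 aligned bases, and 21.6% of the 100-base windows of Acaa1a occur letter for letter in Acaa1b, so how the authors' counting split shared reads makes each gene's own value uncertain. The sum of the pair avoids this only if each shared read was counted once, which is not known. That sum was 638 ± 85.2 CPM (SD, n = 3) in TAA, 1435 ± 94.97 CPM after 2 weeks and 1247 ± 111 CPM after 5 weeks. In it the groups of rhCYGB libraries did not overlap TAA. Per length, the FPKM of Acaa1b was 3.64, 4.56 and 4.08 times that of Acaa1a in TAA, 5.87, 5.58 and 6.49 times after 2 weeks, and 5.79, 4.75 and 5.37 times after 5 weeks. This ratio was higher in all 6 rhCYGB libraries than in TAA, by little in replicate 27, but it rests on the separate values and so on the unknown split of shared reads. An exact permutation test of 3 against 3 libraries cannot give a two-sided p below 0.1, so none was made.

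The upstream sequences of the pair are shown because these are the genes called in both comparisons with TAA. They are the 250 bases before each annotated start, 5′ to 3′ on the gene's strand, from RefSeq (GRCm38.p6): chr9:119341044-119341293 on the plus strand for Acaa1a and chr9:119157094-119157343 on the minus strand for Acaa1b. Capitals mark the CCAAT box, read on either strand (CCAAT or ATTGG).
Acaa1a: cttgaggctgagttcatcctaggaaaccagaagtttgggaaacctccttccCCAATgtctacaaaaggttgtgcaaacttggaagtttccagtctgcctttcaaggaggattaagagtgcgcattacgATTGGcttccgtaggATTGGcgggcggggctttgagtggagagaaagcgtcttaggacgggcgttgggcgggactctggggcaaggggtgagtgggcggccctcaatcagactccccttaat
Acaa1b: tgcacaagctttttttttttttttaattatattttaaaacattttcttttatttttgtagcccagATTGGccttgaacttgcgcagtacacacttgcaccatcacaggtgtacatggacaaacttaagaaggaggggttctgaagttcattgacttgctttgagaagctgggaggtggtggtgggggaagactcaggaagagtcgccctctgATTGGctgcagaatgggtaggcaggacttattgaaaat
The Acaa1a window holds 3 CCAAT boxes, a number that 2.79% of the 32851 RefSeq windows of this length reach, and the Acaa1b window holds 2. The window of Ehhadh holds 1. In all, 3 of the 7 windows available for 6 of the 8 genes hold at least 1 box, against 33.8% of all windows. A direct repeat of the nuclear receptor core site spaced by a single base (AGGTCANAGGTCA, both strands, up to 2 mismatches) was in 0 of these 7 windows and in 3.24% of all windows. The core site AGGTCA alone was in the window of Scp2 and in 14.02% of all windows. These are matches of letters within 250 bases and say nothing of binding.

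**Figure D2:**
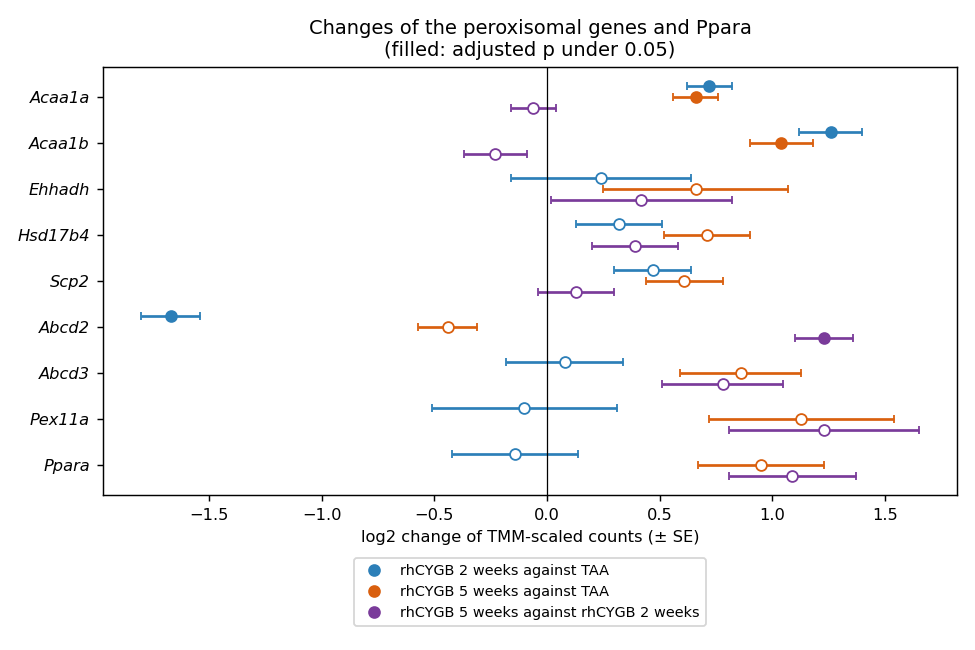
Log2 change of each of the 8 genes, and of Ppara, with its standard error in the 3 comparisons, where filled points are genes called by edgeR at an adjusted p under 0.05. Acaa1a and Acaa1b are called above 0 in both comparisons with TAA, and Abcd2 is called below 0 at 2 weeks and above 0 between the rhCYGB groups.

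Many omissions of a single library removed the thiolase calls, and with them most calls over all genes. Genes called at 2 weeks fell from 488 to 31, 1, 2, 5 and 3 without replicates 12, 13, 14, 17 and 18. They were 169 to 1095 without the others. At 5 weeks 190 became 0 without replicate 13, 14, 17, 18, 19 or 23, 5 without 12, 2 without 28 and 240 without 27. Of these, replicates 17, 18 and 19 are in neither group of that comparison. The calls of Acaa1a also depended on the scaling. With library totals in place of TMM the log2 changes of Acaa1a were 0.39 at 2 weeks and 0.44 at 5 weeks and were not called (edgeR adjusted p = 0.0544 and 0.0645), nor were they with limma on log2(FPKM + 0.1) (adjusted p = 0.0510 and 0.0515), while those of Acaa1b were 0.93 and 0.81 with library totals and were called. At 2 weeks the Acaa1b call was lost without replicate 13, 14, 17 or 18 and the Acaa1a call without any of these or replicate 12, while the log2 changes stayed at 1.17 to 1.37 and 0.69 to 0.74 over all 9 omissions (edgeR adjusted p 0.0108 to 0.0740 and 0.0122 to 0.117). At 5 weeks both calls were lost under every omission except that of replicate 27, with log2 changes of 0.94 to 1.15 for Acaa1b and 0.64 to 0.69 for Acaa1a (edgeR adjusted p 0.0298 to 0.165 for each). Leaving out replicates 17, 18 and 23 together keeps replicate 19 alone in the 2-week group, so only effect sizes are given. The log2 changes of Acaa1b were then 1.39 and 0.96 and those of Acaa1a 0.73 and 0.66 at 2 and 5 weeks.

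Abcd2, a transporter known to import very long and polyunsaturated acyl-CoAs, is normally scarce in liver (gene ID 26874, mm10 chromosome 15, 91145871 to 91191807). It was at 21.1, 25.9 and 23.4 CPM in TAA, 7.60, 7.69 and 6.83 CPM after 2 weeks, and 18.9, 17.1 and 16.0 CPM after 5 weeks. The 3 groups did not overlap, with the 2-week libraries far below the others and the 5-week libraries a little below TAA. Abcd2 fell 3.18-fold at 2 weeks (log2 change -1.67 ± 0.13, SE, n = 3 per group, edgeR adjusted p = 0.00317). Apart from the fit without replicates 17, 18 and 23 together, this call held under every alternative, with log2 changes from -2.01 to -1.39. That fit keeps replicate 19 alone in the 2-week group, and the log2 change in it was -1.78.

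At 5 weeks the log2 change of Abcd2 against TAA was -0.44 ± 0.13, which did not pass the test (edgeR adjusted p = 0.113). It passed in 3 of the 20 alternatives. These were DESeq2 (log2 change -0.42, adjusted p = 0.0473), library totals in place of TMM (-0.66, edgeR adjusted p = 0.0453) and limma on log2(FPKM + 1) (limma adjusted p = 0.0398). The direct comparison put Abcd2 2.35-fold higher after 5 weeks than after 2 weeks (log2 change 1.23 ± 0.13, edgeR adjusted p = 0.0171). In that comparison 3 of 14731 genes were called: Abcd2, the replication factor Mcm10 (higher, log2 change 2.31 ± 0.20, edgeR adjusted p = 0.00835) and the tight junction gene Tjp3 (lower, -1.09 ± 0.12, edgeR adjusted p = 0.0171), both named after their values were seen. The difference ran from 0.88 to 1.34 over the 20 alternatives and was called in 9 of them. Without replicates 12, 13, 14, 17, 18 or 23 the call was lost, at log2 differences of 1.16 to 1.26, and with the trend over transcript length removed it was 0.99 and not called. Fewer cells that express a gene and less RNA per cell cannot be told apart in whole liver, for Abcd2 and for every gene here.

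Levels of other cell types' markers are given beside these values. Summed over 12 genes, stellate cell and myofibroblast markers were 1396 to 2089 CPM in TAA, 535 to 941 CPM after 2 weeks and 398 to 861 CPM after 5 weeks. Both rhCYGB groups lay below TAA in this sum and overlapped each other. Of the 12 genes edgeR called 3 lower at 2 weeks and 2 at 5 weeks (beside 1.34% and 0.604% of tested genes). Adipocyte markers, from a cell type in which Abcd2 is known to be abundant, summed to 3.24 to 7.15, 5.06 to 5.31 and 3.23 to 7.19 CPM over 8 genes. Of the 8, Lep and Retn were at 0 in every library, Adipoq at most 0.0881, Plin1 at most 0.227 and Cfd at most 0.2335 CPM. Most of each sum therefore came from the other adipocyte markers. Only 2 of the 8 passed the count filter, with a median log2 change of -0.54 at 2 weeks and -1.87 at 5 weeks. In each comparison with TAA 1 of these 2 changed upward and edgeR called 0. DESeq2 called 1 of them at 5 weeks (8.01% of the genes it tested). Macrophage markers (11 genes) summed to 926 to 969, 780 to 1155 and 594 to 797 CPM, and cholangiocyte markers (6 genes) to 329 to 536, 271 to 375 and 111 to 367 CPM. Of the macrophage markers edgeR called 1 higher and 1 lower at 2 weeks (beside 1.98% and 1.34% of tested genes). T and NK cell markers (8 genes) summed to 6.81 to 9.12, 17.4 to 33.3 and 15.2 to 30.4 CPM, with both rhCYGB groups above TAA. Of these 8 genes 3 were called higher at 2 weeks (beside 1.98% of tested genes). The endothelial markers (6 genes) were 90.1 to 100, 95.5 to 112 and 76.9 to 101 CPM. The part of these cells in the levels of the 8 genes was not tested.

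Abcd3, the most abundant ABC transporter of the peroxisomal membrane in liver, carries branched and dicarboxylic acyl-CoAs and bile acid precursors (gene ID 19299, mm10 chromosome 3, 121758910 to 121815215). It stood at 290, 390 and 248 CPM in TAA, 309, 296 and 376 CPM after 2 weeks, and 793, 372 and 517 CPM after 5 weeks. The 2-week libraries fell inside the TAA range, and replicate 27 of the 5-week group did too. The log2 changes were 0.08 ± 0.26 at 2 weeks and 0.86 ± 0.27 at 5 weeks (edgeR adjusted p = 0.875 and 0.132), and the latter was 0.51 without replicate 23. The log2 difference of Abcd3 between the rhCYGB groups was 0.78 ± 0.27 (edgeR adjusted p = 0.178), and it passed without replicate 27 (1.00, edgeR adjusted p = 0.0410). DESeq2 called the change of Abcd3 at 5 weeks (adjusted p = 0.0256). The FPKM of Abcd3 was 17.3 to 24.6 times that of Abcd2 in TAA, 62.7 to 89.9 times after 2 weeks and 35.5 to 68.6 times after 5 weeks. Both rhCYGB groups lay above TAA in this ratio, and they overlapped each other.

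Ehhadh encodes the L-bifunctional enzyme, known for its part in dicarboxylic acid oxidation (gene ID 74147, mm10 chromosome 16, 21761285 to 21787834). It ranged widely within every group: 170, 482 and 243 CPM in TAA, 358, 246 and 452 CPM after 2 weeks, and 672, 297 and 447 CPM after 5 weeks. The highest library was 2.84, 1.84 and 2.26 times the lowest within the 3 groups, which all overlapped. Its log2 changes were 0.24 ± 0.40 at 2 weeks, 0.66 ± 0.41 at 5 weeks and 0.42 ± 0.40 between the rhCYGB groups (edgeR adjusted p = 0.739, 0.409 and 0.526). Without TAA replicate 13, its highest TAA library, the changes at 2 and 5 weeks were 0.75 and 1.18, and neither passed (edgeR adjusted p = 0.400 and 0.218).

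Hsd17b4 encodes the D-bifunctional protein, which acts on very long and branched chains and on bile acid intermediates (gene ID 15488, mm10 chromosome 18, 50128201 to 50196270). It was at 228, 287 and 230 CPM in TAA, 322.5, 269 and 335 CPM after 2 weeks, and 518, 306 and 393 CPM after 5 weeks. On the TMM scale the 5-week libraries lay above TAA and the 2-week libraries overlapped it, and by library totals replicate 27 also fell within the TAA range. The log2 changes were 0.32 ± 0.19 at 2 weeks, 0.71 ± 0.19 at 5 weeks and 0.39 ± 0.19 between the rhCYGB groups (edgeR adjusted p = 0.341, 0.0973 and 0.239). The 5-week value was 0.48 without replicate 23 and passed without replicate 27 (0.88, edgeR adjusted p = 0.0459), and DESeq2 also called it (adjusted p = 0.0145).

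Scp2 encodes sterol carrier protein x, a thiolase for branched chains and bile acid intermediates, and the lipid carrier cut from it (gene ID 20280, mm10 chromosome 4, 108043830 to 108118547). Its level was 2019, 1953 and 1743 CPM in TAA, 2747, 2264 and 2924 CPM after 2 weeks, and 3657, 2456 and 2586 CPM after 5 weeks. On the TMM scale every rhCYGB library was above every TAA library. With library totals alone, replicates 18 and 27, at 2047 and 2249 CPM by library total, fell within the TAA range of 1962 to 2300, and the log2 change at 2 weeks was 0.14. With TMM the log2 changes were 0.47 ± 0.17 at 2 weeks and 0.61 ± 0.17 at 5 weeks, and neither passed the test (edgeR adjusted p = 0.143 and 0.107). The 5-week libraries differed from the 2-week ones by 0.13 ± 0.17 (edgeR adjusted p = 0.644). Without replicate 23 the 5-week value was 0.39, and DESeq2 called it with all libraries (adjusted p = 0.0229).

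Pex11a encodes an inducible membrane factor of peroxisome division (gene ID 18631, mm10 chromosome 7, 79737264 to 79743025). It was at 8.94, 16.4 and 7.13 CPM in TAA, 9.57, 7.44 and 13.4 CPM after 2 weeks, and 31.6, 11.3 and 27.9 CPM after 5 weeks. Replicates 23 and 28 stood above every other library, while replicate 27 lay within the TAA range. The log2 changes were -0.10 ± 0.41 at 2 weeks, 1.13 ± 0.41 at 5 weeks and 1.23 ± 0.42 between the rhCYGB groups (edgeR adjusted p = 0.903, 0.182 and 0.178). Without replicate 27 the last of these was 1.56 (edgeR adjusted p = 0.0410), and without replicate 13 the 2-week change turned to 0.31. DESeq2 called the change at 5 weeks and that between the rhCYGB groups (adjusted p = 0.0499 and 0.0401).

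Within groups, the same libraries tended to be high or low for most of these genes. On the TMM scale, replicate 23 of the 5-week group was highest for all 8 genes and replicate 27 lowest for 6 of them. By library totals Acaa1a was highest in replicate 28 (212.1 CPM against 204.5 in replicate 23). Acaa1a and Abcd2 were then also lowest in replicate 27 (188.7 and 15.66 CPM). In TAA, with TMM, replicate 13 was highest for 7 of the 8 genes, the exception being Scp2. By library totals Scp2 was highest in replicate 13 too (2300 CPM against 2232 in replicate 12). In the 2-week group, also with TMM, replicate 19 was highest for 6 genes and replicate 18 lowest for 5. The spread differed by gene: Ehhadh and Pex11a deviated from their group's mean log2 CPM by -0.93 to 0.83, and Acaa1a by -0.07 to 0.08. All genes of a library share its preparation and scaling, so this is a description of these 9 libraries.

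**Figure D3:**
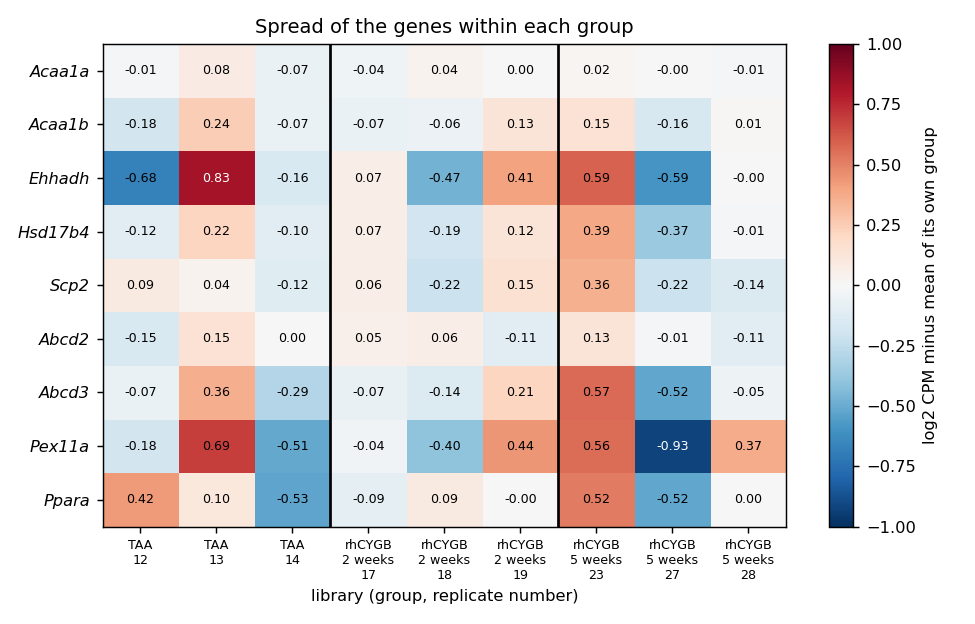
Colour map of each library's log2 CPM minus the mean of its own group for the 8 genes and Ppara, with libraries in columns and red above the mean. Replicate 23 is above its group's mean for all 8 genes and replicate 27 below it for all 8, with the widest deviations for Ehhadh, Abcd3 and Pex11a.

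Ppara, the gene of the receptor, was followed alongside. It was at 104, 83.5 and 53.9 CPM in TAA, 68.9, 77.8 and 73.1 CPM after 2 weeks, and 214, 104.3 and 149.5 CPM after 5 weeks. On the TMM scale its 5-week libraries lay above TAA (as for 11.6% of tested genes), barely so for replicate 27, and above the 2-week group (10.9%). By library totals replicate 27, at 95.5 CPM, fell within the TAA range of 60.7 to 115.2. The log2 changes of Ppara were -0.14 ± 0.28 at 2 weeks and 0.95 ± 0.28 at 5 weeks (edgeR adjusted p = 0.786 and 0.115). Ppara also had its highest level in replicate 23, and without that library its 5-week change was 0.64. With all libraries DESeq2 called the 5-week change of Ppara (adjusted p = 0.0159).

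Genes outside the 8 that followed their joint level most closely were chosen by correlation with the mean of the standardised log2 CPM over the 9 libraries, among 7854 genes averaging 10 CPM or more. They were Acad11 (Pearson's r 0.987), an acyl-CoA dehydrogenase, Oplah (0.985), the oxoprolinase of glutathione turnover, Acadl (0.983) and Acadm (0.978), the long- and medium-chain acyl-CoA dehydrogenases of mitochondria, and Ghitm (0.975), a mitochondrial inner membrane protein. Acad11 was highest in replicate 23 at 492.5 CPM and lowest in replicate 12 at 191 CPM. The points share libraries and scaling, and no test was made.

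Other enzymes of peroxisomal lipid metabolism (35 tested) included risers in both comparisons with TAA and, on the TMM scale, no gene called lower. At 2 weeks 3 rose and 32 did not pass, with a median log2 change of 0.27 against -0.03 over all genes. The 3 were the epoxide hydrolase Ephx2 (1.74-fold, edgeR adjusted p = 0.0240), the enoyl-CoA reductase Pecr (1.61-fold, 0.0255 as adjusted p) and the enoyl-CoA isomerase Eci2 (1.76-fold, 0.0457 as adjusted p). At 5 weeks 5 rose and 30 did not pass, with a median of 0.36 against 0.01. They were Ephx2 (1.93-fold, edgeR adjusted p = 0.0362), the phytanoyl-CoA hydroxylase Phyh (1.68-fold, 0.0362), the dienoyl-CoA reductase Decr2 (1.53-fold, 0.0427), catalase, Cat (1.63-fold, 0.0427), and the very long chain acyl-CoA synthetase Slc27a2 (1.91-fold, 0.0467). Ephx2 was named in both comparisons, at 360 ± 26.2 CPM in TAA, 628 ± 5.93 CPM after 2 weeks and 694 ± 99.3 CPM after 5 weeks (SD, n = 3). Of the 35, 14 at 2 weeks and 17 at 5 weeks had an unadjusted edgeR p under 0.05 (beside 23.4% and 19.2% of tested genes). DESeq2 called 10 and 13 of the 35 (beside 12.2% and 8.01% of the genes it tested). For 5 against 2 weeks edgeR called 0 of the 35, with 8 at an unadjusted p under 0.05 (beside 23.2% of tested genes). DESeq2 called 1 of them (beside 6.12% of the genes it tested). With the trend over transcript length removed, Pecr was no longer called at 2 weeks (log2 change 0.43, edgeR adjusted p = 0.111). With library totals Ephx2 kept its call at 5 weeks and the other calls named here were lost, while 1 gene of the list was called lower at 2 weeks, and all of them were lost without replicate 12, 13 or 14.

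Of 18 tested peroxins and division factors, the AAA ATPase Pex6 rose at 2 weeks (1.57-fold, edgeR adjusted p = 0.0255) and 17 did not pass, with a median of 0.14. There 4 of the 18 had an unadjusted edgeR p under 0.05 (beside 23.4% of tested genes), and DESeq2 called 2 (beside 12.2%). At 5 weeks edgeR called 0 of the 18, with 3 at an unadjusted p under 0.05 (as for 19.2% of tested genes), and DESeq2 also called 0, with a median of 0.21. Between the rhCYGB groups edgeR called 0, with 5 at an unadjusted p under 0.05 (beside 23.2% of tested genes). DESeq2 called 1 there (beside 6.12% of the genes it tested). With library totals in place of TMM the medians turned to -0.19 at 2 weeks and -0.01 at 5 weeks, and the 2-week median of the other lipid enzymes turned to -0.07 and that of the 8 genes to -0.06.

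Of 28 genes, PPAR alpha itself and its other targets, 2 rose at 2 weeks and 26 did not pass, with a median of 0.38. The risers were the mitochondrial dehydrogenase Acadvl (1.44-fold, edgeR adjusted p = 0.0392) and Fgf21, a secreted hormone at no more than 1.80 CPM in any library. With library totals Acadvl was at 0.19 against 0.53 on the log2 scale (edgeR adjusted p = 0.223) and with upper quartiles it was not called either (0.0542 as adjusted p). Neither scaling called any of the 28 genes at 2 weeks, and the list's median with library totals was 0.04. At 5 weeks 2 rose and 26 did not pass, with a median of 0.47: Txnip, a thioredoxin inhibitor (3.84-fold, edgeR adjusted p = 0.0379) and the fatty aldehyde dehydrogenase Aldh3a2 (2.57-fold, 0.0489). With upper quartiles neither was called, with library totals Aldh3a2 was not (edgeR adjusted p = 0.0601), and the list's median was 0.25 with library totals. Of the 28, 10 at 2 weeks and 18 at 5 weeks had an unadjusted edgeR p under 0.05 (beside 23.4% and 19.2% of tested genes). DESeq2 called 6 and 9 of the 28 (beside 12.2% and 8.01% of the genes it tested). In the direct comparison edgeR called 0 of the 28, with 4 at an unadjusted p under 0.05 (beside 23.2% of tested genes). DESeq2 called 4 of them (beside 6.12% of the genes it tested).

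Core clock genes and the output factors Dbp, Tef and Hlf, 13 in all, were summed. Their sum was 344 to 467 CPM in TAA, 368 to 487 CPM after 2 weeks and 653 to 743 CPM after 5 weeks. In this sum the 5-week libraries lay above all others, and the TAA and 2-week ranges overlapped. Dbp alone was at 58.6 to 93.9, 51.2 to 112.7 and 124 to 200 CPM in these groups. The sum joins genes that changed in opposite directions, with 9 of the 13 log2 changes above 0 at 5 weeks. Arntl, a core activator of the clock, fell at 5 weeks from 8.38 ± 1.43 to 3.86 ± 0.330 CPM (SD, n = 3 per group, log2 change -1.12 ± 0.18, edgeR adjusted p = 0.0362), and its partner Npas2, at no more than 1.58 CPM in any library, was the other gene called. At 2 weeks the repressor Nr1d1 rose 1.84-fold (edgeR adjusted p = 0.0452). The Nr1d1 call was lost with library totals (log2 change 0.54 against 0.88, edgeR adjusted p = 0.0605), with upper quartiles (0.0626 as adjusted p), in all FPKM fits and without replicate 12, 13, 14, 17, 18 or 28. Of the 13, 2 at 2 weeks and 9 at 5 weeks had an unadjusted edgeR p under 0.05 (beside 23.4% and 19.2% of tested genes). DESeq2 called 1 and 8 of the 13 (beside 12.2% and 8.01% of the genes it tested). Between the rhCYGB groups edgeR called 0 of the 13, with 9 at an unadjusted p under 0.05 (beside 23.2% of tested genes). DESeq2 called 8 of them (beside 6.12% of the genes it tested). Peroxisomal and PPAR alpha target genes are known to vary over the day in mouse liver, and the part of the hour of collection in these values was not tested.

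**Figure D4:**
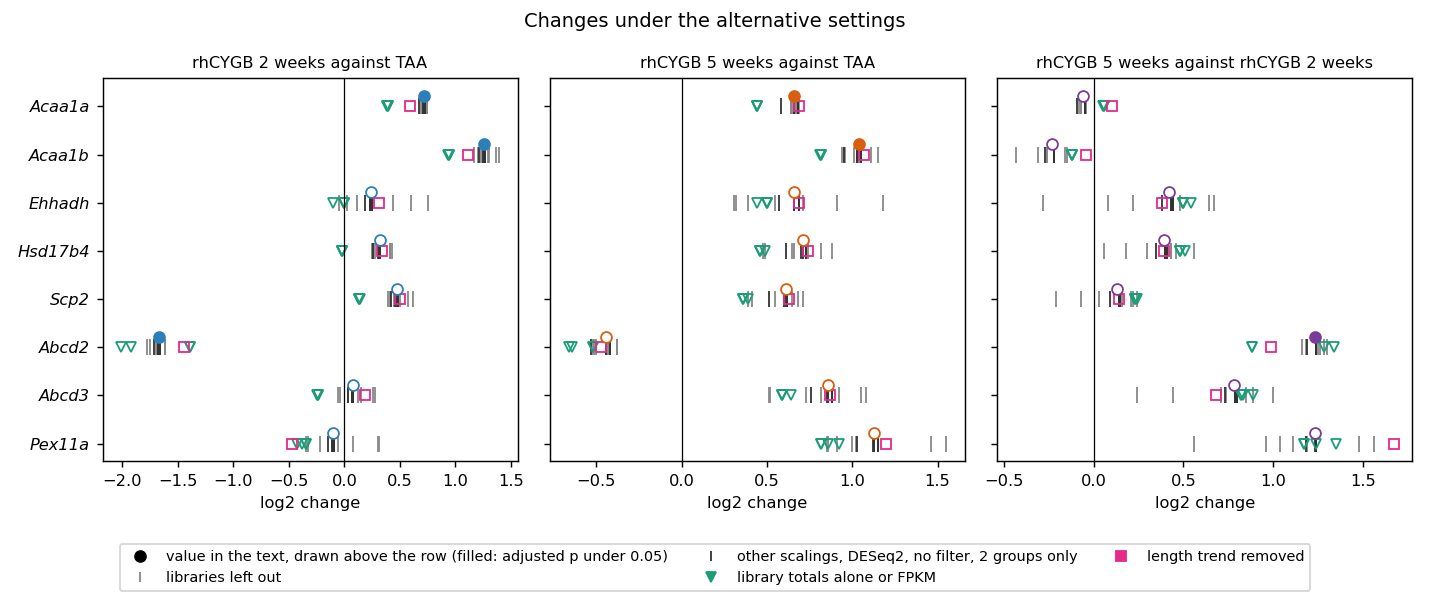
Log2 change of the 8 genes under the 20 alternative settings in the 3 comparisons, with the value given in the text drawn above each row of alternatives. Acaa1a and Acaa1b stay above 0 in both comparisons with TAA and Abcd2 stays below 0 at 2 weeks in every alternative, while Ehhadh, Hsd17b4, Abcd3 and Pex11a cross 0 at 2 weeks.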

How the data were processed

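Poly(A)-selected, strand-marked libraries from whole liver were read from both ends, per the labels' protocols. Per the submitters' processing notes, FastQC 0.11.7, HISAT2 2.1.0, StringTie 1.3.4d and mm10 were used. How estimated counts were made from these, and whether strand was used, is not given in the sources used here. The deposited values are estimated counts per gene (whole numbers as deposited by the authors, for 24532 genes), FPKM and transcript lengths, per the file headers.

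The filter filterByExpr of edgeR, at its minimum count of 10 and minimum total of 15, left 14731 genes. After TMM scaling, edgeR 4.0.16 (R 4.3.3) gave quasi-likelihood F tests from 1 fit of the 9 libraries, with 6 residual degrees of freedom. P-values were adjusted by Benjamini-Hochberg across those genes, and a gene was called below 0.05. The common biological coefficient of variation was 24.9%. SE is the log2 change divided by the square root of F. CPM are TMM-scaled. The test was checked on simulated counts with the same spread for every gene and no outlying library. That check does not cover outlying libraries or a scale that differs by group, as in these data.

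Alternatives were DESeq2 1.42.0, limma 3.58.1 on log2(FPKM + 1) or log2(FPKM + 0.1), other scalings and filters, only the 2 groups compared, removal of the trend over transcript length (loess, span 0.5), and omission of each library or of replicates 17, 18 and 23 together. The genes, marker and pathway lists, and the choice of those 3 libraries were made with earlier results of these data known. From each list, up to 5 called genes were named, in order of adjusted p, if they averaged 1 CPM or more and their groups did not overlap, and Ppara always. Some genes of the lists are not reported here. Genes most like the 8 were the 5 highest in Pearson's r. CCAAT and AGGTCA motifs were searched in RefSeq upstream windows.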

Additional observations from a re-analysis of the deposited data

Results flagged for a closer look

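Abcd2 differed between the courses of rhCYGB by the direct test of 5 weeks against 2 weeks: the log2 difference was 1.23 ± 0.13 (SE, n = 3 per group, edgeR adjusted p = 0.0171). Its log2 changes against TAA, which share the TAA libraries, were -1.67 at 2 weeks and -0.44 at 5 weeks. All 3 libraries of the 5-week group (16.0 to 18.9 CPM) lay above all 3 of the 2-week group (6.83 to 7.69 CPM) and below all 3 of TAA (21.1 to 25.9 CPM). The call was lost without replicates 12, 13, 14, 17, 18 or 23, where the difference was 1.16 to 1.26 and the edgeR adjusted p between 0.0543 and 0.119.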

How the results depend on the processing

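Of 480 values of the 8 genes under 20 alternatives in 3 comparisons, 397 kept their direction and side of the threshold, 46 kept the direction but were no longer called, 11 became called and 26 turned. No paired analysis was possible because the groups share no replicate number. Counts below are given for rhCYGB 2 weeks against TAA, 5 weeks against TAA and 5 against 2 weeks in that order. All genes called (488, 190 and 3) became 1722, 499 and 3 with library totals (6.4% and 7.6% of the first 2 counts higher, against 59.6% and 53.2% with TMM), 326, 77 and 3 with upper quartiles (45.1% and 41.6% higher), 388, 105 and 3 with no count filter, 649, 595 and 6 with the length trend removed, and 1724, 1178 and 796 with DESeq2. They were 1983, 1001 and 5 with log2(FPKM + 1), 1639, 693 and 4 with log2(FPKM + 0.1), 1468, 691 and 7 with log2(FPKM + 1) and no filter, and 1023, 1 and 0 with only the 2 groups compared. No count is given without replicates 17, 18 and 23 together (the 3 libraries below), a fit that keeps replicate 19 alone in the 2-week group. Leaving out each library gave 1 to 1095, 0 to 240 and 1 to 1889. Of the 8 genes (3, 2 and 1 called), library totals called 2, 2 and 1, losing Acaa1a in both comparisons with TAA and adding Abcd2 at 5 weeks. DESeq2 called 7 at 5 weeks and 2 between the rhCYGB groups, log2(FPKM + 0.1) called 1 at 5 weeks, and the 2 groups alone called 0 at 5 weeks and 0 between the rhCYGB groups. Between the rhCYGB groups 0 were called with the length trend removed or log2(FPKM + 1), with or without a filter. With each library left out in turn, 1 to 3, 0 to 3 and 0 to 3 of the 8 genes were called. At 2 weeks, Ehhadh turned to -0.10 with library totals, -0.00095, -0.00014 and -0.00095 in the 3 FPKM fits and -0.05 without replicate 12 (range over single omissions -0.05 to 0.75), and Hsd17b4 to -0.02 with library totals and in those fits. Abcd3 turned to -0.25 with library totals, -0.24 in the FPKM fits, -0.06 without replicate 14 and -0.04 without 19 (range -0.06 to 0.26). Pex11a turned to 0.31 without replicate 13, 0.08 without 18 and 0.30 without the 3 libraries (range over single omissions -0.35 to 0.31). Ppara turned to 0.13 with the length trend removed and 0.08 without replicate 12 (range -0.36 to 0.08). Between the rhCYGB groups, Acaa1a turned to 0.05 with library totals, 0.10 with the length trend removed and 0.06 in the FPKM fits, Ehhadh to -0.28 without the 3 libraries, and Scp2 to -0.07 without replicate 23 (range -0.07 to 0.24) and -0.21 without the 3. The causes were not tested, beyond that fewer samples enter the fits that leave libraries out. The 14 calls of named genes outside the 8 were kept in full with DESeq2 and without replicate 27. Of them 3 were kept with library totals, 6 without replicate 23, 5 without 19, 2 without 28, 1 without 12 and 0 without 13, 14, 17 or 18. Abcd2 and Pex11a are the shallowest of the 8 genes, and 3 libraries per group limit every call.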
